A study of Mus musculus with 6 samples.

Results

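The 10 genes described here encode proteins that bind, build or destabilise microtubules, and several of them are used as markers of young neurons. They are the doublecortin genes Dcx and Dclk1, the microtubule-associated protein (MAP) genes Map2, Mapt and Map1b, the neuronal beta tubulin gene Tubb3, and the stathmin genes Stmn1, Stmn2, Stmn3 and Stmn4. They were chosen by name for this shared function, with earlier results of these data known. All 10 were found by symbol among the 26264 genes of a raw count table. RNA was sequenced in bulk from adult mouse spinal cord neural stem cells grown with EGF and FGF2, on a C57BL6J background, carrying a GFP reporter of Pdgfra, the receptor that marks oligodendrocyte precursor cells. Fluorescence sorting gave 3 GFP-positive libraries, labelled with the genotype PDGFRaGFP/+, and 3 GFP-negative libraries, labelled PDGFRaGFP/-. The comparison asks how the reporter-bearing cells of these cultures, from which the study follows oligodendrocyte production, differ from the remaining cells. The labels do not give the age or sex of the animals, the number of cells sorted, or whether the 3 replicates are animals or cultures.

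Microtubules are hollow polymers of alpha and beta tubulin whose growth and shrinkage shape the processes of neurons and glia. Doublecortin, Map2, tau (the product of Mapt) and Map1b bind the polymer and steady it, Dclk1 joins a doublecortin domain to a kinase, and stathmins bind free tubulin dimers and favour disassembly. Although best known from neurons, tau has long been described in oligodendrocytes, and a short form of MAP2 in rat oligodendrocyte precursors.

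Total counts lay between 36846570 and 45207335 in the GFP-positive libraries and between 31067850 and 32869705 in the GFP-negative ones. Pdgfra stood at 237, 205 and 245 CPM (counts scaled to a common library size) in GFP-positive replicates 1, 2 and 3, and at 8.04, 19.3 and 13.9 CPM in the GFP-negative ones, so the fractions separated as labelled. The stem cell genes Nes and Sox2 were present in every library, Nes at 287 to 298 CPM in GFP-positive and 860 to 990 CPM in GFP-negative libraries, and Sox2 at 237 to 248 CPM in GFP-positive and 296 to 352 CPM in GFP-negative libraries. In bulk RNA, fewer cells of a kind and less RNA per cell cannot be told apart, which applies to every difference given here.

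Of the 10 genes, 9 passed the filter on low counts. In GFP-positive cells 6 of these rose (Dcx, Tubb3, Map2, Mapt, Stmn3 and Stmn4), 1 fell (Dclk1) and 2 missed the threshold (Map1b and Stmn1), by edgeR's quasi-likelihood test with adjusted p below 0.05 over 14554 genes. The contrast was broad: 55.4% of all tested genes passed the same threshold, 26.1% as higher and 29.2% as lower. Without replicate number 3, 2450 genes were higher over all genes, in place of 3804. The median log2 fold change, GFP-positive minus GFP-negative, was 0.94 over the 9 genes and -0.0058 over all tested genes. Because the genes were picked with earlier results of these data known, these counts are a description. In 7 of the 9 genes the libraries of the fractions did not overlap, as in 64.2% of all tested genes.

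**Figure D1:**
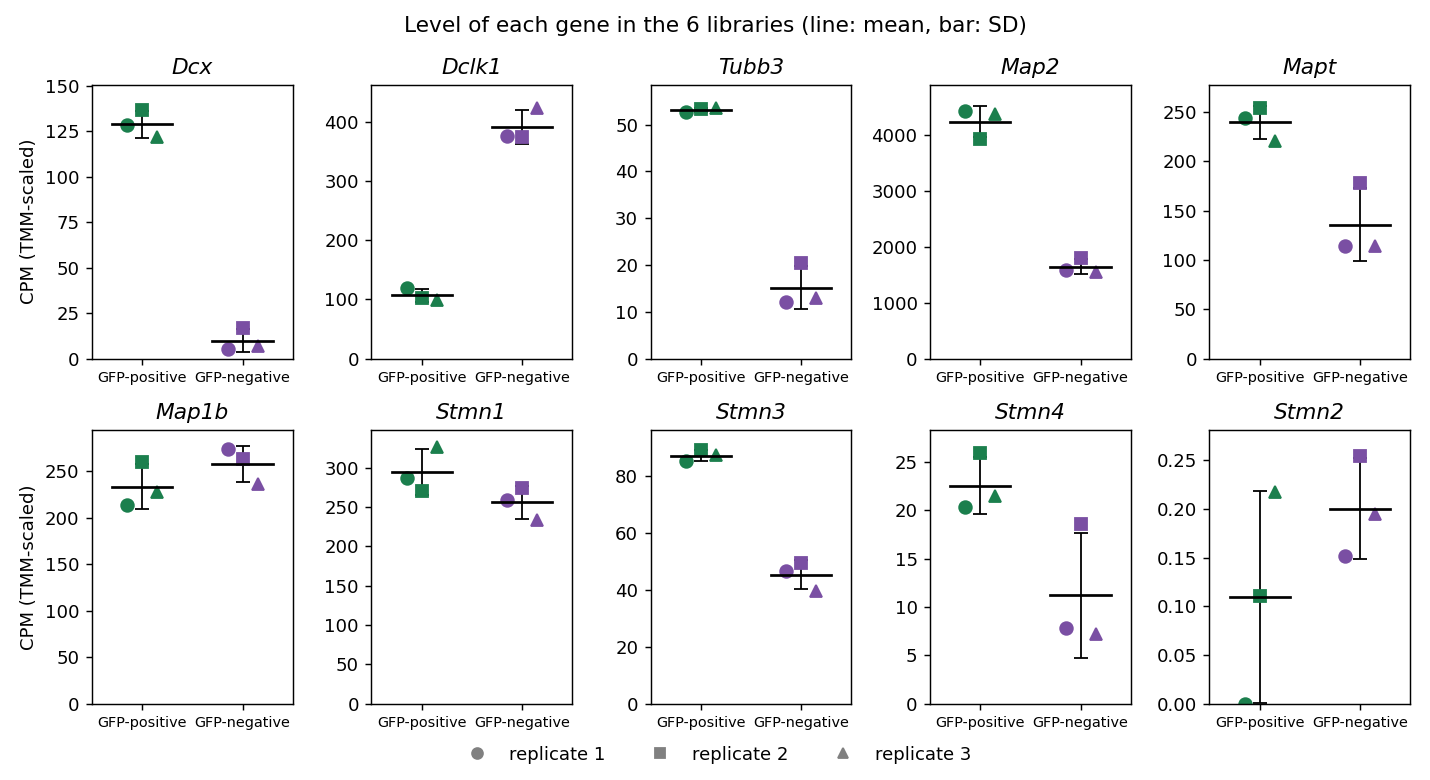
CPM (TMM-scaled) of each of the 10 genes in the GFP-positive (green, left) and GFP-negative (purple, right) libraries; symbols mark replicates 1 to 3, the line is the mean and the bar the SD. Dcx, Tubb3, Map2, Mapt, Stmn3 and Stmn4 lie higher in every GFP-positive library, Dclk1 lies lower, Map1b and Stmn1 overlap, and Stmn2 stays at or under 0.255 CPM.

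Dcx had the largest fold change of the 9 tested genes. This gene on the X chromosome encodes doublecortin, which stabilises microtubules in migrating neuroblasts. Its level was 128, 137 and 122 CPM in GFP-positive replicates 1, 2 and 3, against 5.22, 17.0 and 7.03 CPM in the GFP-negative replicates. The GFP-positive libraries lay close together, while GFP-negative replicate 2 stood 2.78-fold above the mean of the other GFP-negative libraries. The log2 fold change was 3.73 (SE 0.37, edgeR adjusted p = 9.21e-05), and 22 of the 14554 tested genes had a larger one. Without GFP-negative replicate 2 it was 4.41, a 21.2-fold difference in place of 13.2-fold.

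Dclk1, whose product carries doublecortin domains and a kinase domain, moved the other way. It stood at 120, 101 and 99.4 CPM in GFP-positive cells, against 376, 374 and 424 CPM in GFP-negative cells. No library of either fraction came near the other fraction, and replicate 2 did not stand apart. edgeR put the log2 fold change at -1.87 (SE 0.09; adjusted p = 3.22e-06), so that the level was 3.66-fold higher in GFP-negative cells.

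Within a library, the ratio of both genes does not depend on how libraries are scaled. Per kilobase of exon, Dcx counts were 1.30, 1.63 and 1.48 times those of Dclk1 in GFP-positive replicates, against 0.0168, 0.0550 and 0.0201 times in GFP-negative replicates. Dcx thus exceeded Dclk1 in each GFP-positive library and was the rarer transcript in each GFP-negative one. On the log2 scale the ratio averaged 0.55 ± 0.17 in the GFP-positive fraction, against -5.24 ± 0.92 in the GFP-negative fraction (SD, n = 3 each; exact two-sided permutation p = 0.1, the smallest that 3 against 3 libraries can give; 0.115 adjusted over 15 ratios). Dclk2, the close relative of Dclk1, was at the same time the most abundant of the 3 genes in GFP-positive cells, with 56.9% ± 1.55 of their summed counts per kilobase, against 47.7% ± 0.17 in GFP-negative cells (SD, n = 3 each). Dcx took 25.6% ± 1.14 of that sum in the GFP-positive fraction, against 1.54% ± 1.03 in the GFP-negative fraction (SD, n = 3 each). Dclk1 took 17.5% ± 1.61 in the GFP-positive fraction, against 50.8% ± 1.19 in the GFP-negative fraction (SD, n = 3 each). The level of Dclk2 itself was 239 ± 2.32 CPM in GFP-positive cells, against 254 ± 16.9 CPM in GFP-negative cells (SD, n = 3 each). Dclk2 did not pass the test (edgeR, adjusted p = 0.248). Its larger share in GFP-positive cells therefore does not stand for a higher level.

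Tubb3 encodes the beta tubulin isotype that identifies neurons in most tissues. Its level was 52.7, 53.3 and 53.5 CPM in GFP-positive replicates, against 12.1, 20.4 and 12.99 CPM in GFP-negative replicates. The GFP-positive libraries were nearly equal, with a coefficient of variation of 0.773%, and replicate 2 was the highest of the GFP-negative ones. On the log2 scale the fitted difference was 1.81 (SE 0.18, edgeR adjusted p = 8.57e-05).

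Against the other beta tubulins Tubb3 remained a minor isotype in both fractions. It made up 4.64% ± 0.037 of all beta tubulin counts per kilobase in the GFP-positive fraction, against 1.71% ± 0.42 in the GFP-negative fraction (SD, n = 3 each). Tubb2b and Tubb5, isotypes of proliferating and developing neural cells, took 38.7% ± 2.14 and 31.5% ± 0.86 in GFP-positive cells, and 36.8% ± 1.72 and 29.9% ± 2.34 in GFP-negative cells (SD, n = 3 each). Tubb3 counts per kilobase were 0.153, 0.147 and 0.143 times those of Tubb5 in GFP-positive libraries, against 0.0473, 0.0685 and 0.0547 times in GFP-negative libraries (exact two-sided permutation p = 0.1, adjusted 0.115). The libraries did not overlap in this ratio.

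Map2, whose product binds microtubules of dendrites, was the most abundant of the 10 genes by counts in both fractions. It stood at 4413, 3918 and 4364 CPM in GFP-positive replicates, against 1580, 1793 and 1547 CPM in GFP-negative replicates. By mean CPM it ranked 6 among all genes in the GFP-positive fraction, against 23 in the GFP-negative fraction. The fitted log2 fold change was 1.37 (SE 0.09; adjusted p = 9.73e-06 in edgeR). The table gives no transcript forms, so long and short Map2 forms were not separated.

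Mapt, the gene of tau, a protein of axonal microtubules, also rose. Its level was 244, 254 and 221 CPM in GFP-positive cells, against 115, 178 and 114 CPM in GFP-negative cells. The fractions did not overlap, although GFP-negative replicate 2 stood 1.56-fold above the mean of the other GFP-negative libraries. edgeR put the log2 fold change at 0.82 (SE 0.17; adjusted p = 0.00344), or 1.08 without that library.

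Map1b, which encodes a large MAP of growing axons, did not pass the test. It was at 213, 260 and 227 CPM in GFP-positive cells, against 274, 263 and 236 CPM in GFP-negative cells, and the fractions overlapped. On the log2 scale the fitted difference was -0.14 (SE 0.09, edgeR adjusted p = 0.2), and its adjusted p lay between 0.0662 and 0.852 over 17 alternative fits.

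The large MAPs were also compared within each library. Map2 took 74.6% ± 2.52 of the summed counts per kilobase of Map2, Mapt, Map1b, Map1a and Map4 in GFP-positive cells, against 58.5% ± 0.73 in GFP-negative cells (SD, n = 3 each). Map1b took 4.29% ± 0.58 in the GFP-positive fraction, against 9.57% ± 0.97 in the GFP-negative fraction (SD, n = 3 each). Map4, the MAP of many non-neuronal cells, took 4.20% ± 0.43 in the GFP-positive fraction, against 11.9% ± 1.10 in the GFP-negative fraction (SD, n = 3 each). Map2 and Map4 shares did not overlap between the fractions. The share of Mapt did not separate them, at 9.24% ± 0.87 in the GFP-positive fraction, against 10.5% ± 1.84 in the GFP-negative fraction (SD, n = 3 each). Map2 counts per kilobase were 19.9, 14.5 and 18.5 times those of Map1b in GFP-positive libraries, against 5.56, 6.57 and 6.32 times in GFP-negative libraries (exact two-sided permutation p = 0.1, adjusted 0.115). That ratio did not overlap between the fractions.

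Of the stathmins, Stmn3 and Stmn4 rose, Stmn1 missed the threshold and Stmn2 was hardly present. Stmn1, the widely expressed stathmin of dividing cells, stood at 287, 270 and 327 CPM in GFP-positive replicates, against 259, 275 and 234 CPM in GFP-negative replicates. These ranges overlapped, and the fitted log2 difference of 0.20 (SE 0.09; adjusted p = 0.0796 in edgeR) missed the threshold. It passed at 0.27 without GFP-positive replicate 2 (adjusted p = 0.0486), at 0.27 without GFP-negative replicate 2 (0.024) and at 0.32 without replicate number 2 in both fractions (0.011), over a range of 0.011 to 0.542 in all 17 alternative fits.

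Stmn3, a stathmin anchored to Golgi and vesicle membranes in neurons, was at 85.1, 89.0 and 87.3 CPM in GFP-positive cells, against 46.8, 49.5 and 39.6 CPM in GFP-negative cells. The libraries were tight within each fraction and did not overlap. The fitted log2 fold change was 0.94 (SE 0.08; adjusted p = 5.23e-05 in edgeR). Its counts per kilobase were 0.502, 0.557 and 0.452 times those of Stmn1 in GFP-positive libraries, against 0.305, 0.305 and 0.286 times in GFP-negative libraries (exact two-sided permutation p = 0.1, adjusted 0.115).

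Stmn4, another membrane-bound stathmin of neurons, was the least certain of the 7 genes that passed. Its level was 20.3, 25.9 and 21.5 CPM in GFP-positive cells, against 7.82, 18.6 and 7.16 CPM in GFP-negative cells. The lowest GFP-positive library lay just above GFP-negative replicate 2, which was 2.48-fold above the mean of the other GFP-negative libraries. edgeR put the log2 fold change at 1.01 (SE 0.33; adjusted p = 0.0318), and 1.60 (adjusted p = 9.73e-06) without GFP-negative replicate 2. The call was lost with DESeq2 (adjusted p = 0.0558) and in each fit that left out one of the other 5 libraries (adjusted p from 0.0584 to 0.0961) or replicate number 1 (0.149) or 3 (0.147). Its adjusted p ranged from 9.73e-06 to 0.149 over the 17 alternative fits.

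Stmn2, the stathmin of axons and a common marker of differentiated neurons, was close to undetected and did not pass the filter. It had 0, 5 and 8 counts in GFP-positive replicates, against 5, 8 and 6 counts in GFP-negative replicates. The 0 counts allow a level of up to 0.0817 CPM, set by 3 counts and covering counting error only. No difference was detectable at this depth. Among the stathmins, Stmn1 made up 63.3% ± 2.69 of counts per kilobase in the GFP-positive fraction, against 74.5% ± 1.58 in the GFP-negative fraction (SD, n = 3 each). Stmn3 made up 31.8% ± 1.96 in the GFP-positive fraction, against 22.3% ± 0.56 in the GFP-negative fraction, without overlap (SD, n = 3 each). For Stmn4, whose libraries overlapped, the shares were 4.89% ± 0.80 in GFP-positive and 3.18% ± 1.53 in GFP-negative libraries (SD, n = 3 each). Stmn2 took 0.0232% or less in every library.

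**Figure D2:**
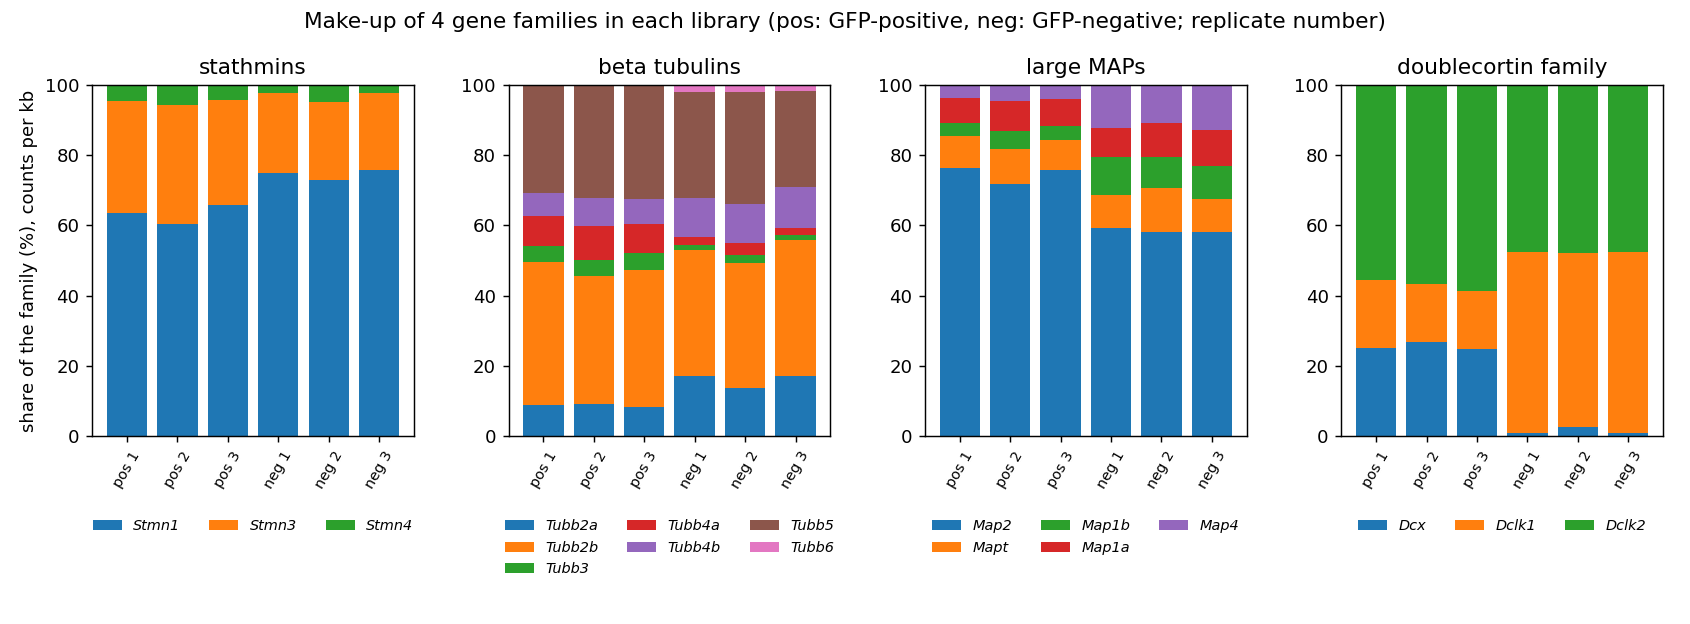
Share of each gene in its family's summed counts per kilobase (%), one bar per library, for the stathmins, beta tubulins, large MAPs and the doublecortin family; GFP-positive libraries are on the left of each panel, and genes under 0.1% in both fractions are not drawn. Dcx holds on average 25.6% of the doublecortin family in GFP-positive libraries, against 1.54% in GFP-negative ones, and Map2 holds 74.6% of the large MAPs in GFP-positive libraries, against 58.5% in GFP-negative ones.

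Compared per kilobase of exon, the order of the levels was led by Map2 in GFP-positive cells, at 257 ± 16.6 CPM per kilobase, and by Stmn1 in GFP-negative cells, at 133 ± 10.7 CPM per kilobase (SD, n = 3 each). In GFP-positive cells Stmn1 (153 ± 15.1), Stmn3 (76.7 ± 1.71), Mapt (31.8 ± 2.22) and Tubb3 (28.5 ± 0.22) came next, and each lay apart from its neighbours (CPM per kilobase, SD, n = 3). Map1b, Stmn4 and Dcx followed at 14.7, 11.8 and 10.2 CPM per kilobase, with overlapping ranges between Map1b and Stmn4 and between Stmn4 and Dcx, and Dclk1 was last at 6.98. In GFP-negative cells Map2 (99.7 ± 8.14), Stmn3 (39.9 ± 4.51) and Dclk1 (25.6 ± 1.85) followed Stmn1, without overlap (CPM per kilobase, SD, n = 3). Mapt and Map1b overlapped, at 18.0 and 16.2 CPM per kilobase, as did Tubb3 and Stmn4, at 8.12 and 5.85. Dcx stood last of the 9 genes in GFP-negative cells, at 0.771 CPM per kilobase.

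Fold changes within same-numbered pairs showed the same directions for the 7 genes that passed. The log2 fold change of Dcx was 4.62, 3.00 and 4.11 in pairs 1, 2 and 3, and that of Dclk1 was -1.65, -1.88 and -2.09. Pair 2 gave the smallest rise for Dcx, Tubb3, Map2, Mapt, Stmn3 and Stmn4. In Stmn1 pair 2 had a value of -0.02, beside 0.15 and 0.48 in the other pairs.

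**Figure D3:**
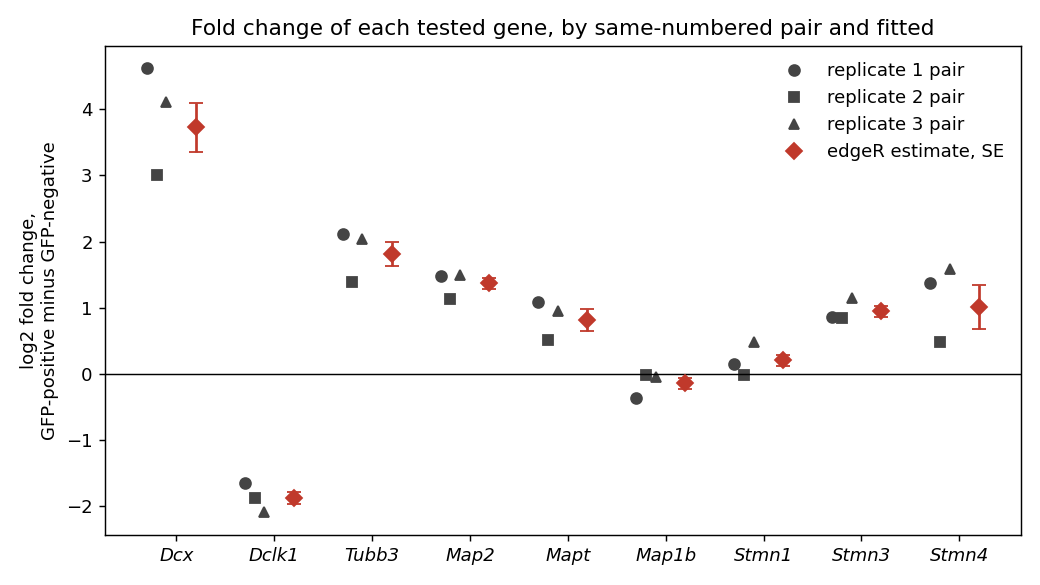
Log2 fold change (GFP-positive minus GFP-negative) of the 9 tested genes, for each same-numbered pair (grey symbols) and as fitted by edgeR (red diamond, bar SE). Pair 2 lies lowest among the pairs for Dcx, Tubb3, Map2, Mapt, Stmn3 and Stmn4, and Dclk1 is the one gene well under 0, at -1.87.

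GFP-negative replicate 2, which was highest of its fraction for 7 of the 9 tested genes, was also highest for 13 of 18 precursor markers and for 37.7% of all tested genes. Pdgfra was 19.3 CPM there, against 8.04 and 13.9 CPM in its fellow GFP-negative replicates, and Sox10, a lineage transcription factor, was 12.5 CPM there, against 2.34 and 3.53 CPM in those replicates. GFP-positive replicate 2 was likewise highest of its fraction for 11 of 18 precursor markers, for 5 of the 9 genes and for 36.6% of all tested genes, and Sox10 was 93.6 CPM there, against 39.4 and 45.4 CPM in GFP-positive replicates 1 and 3. The part of these markers in the differences was not tested. Without GFP-negative replicate 2, 8 of the 9 genes passed the test, Stmn1 in addition.

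Promoter sequence was read for the genes that changed most and for the most abundant one, to show what kind of promoter each has. RefSeq sequences of build GRCm38.p6 held starts for Dcx, Dclk1, Map2, Map1b, Tubb3 and Stmn3. The counts come from build mm39, and the table does not say which start was used. The 250 bases before the start of Dcx (chrX:143933220-143933469, minus strand), Dclk1 (chr3:55242114-55242363, plus strand), Tubb3 (chr8:123411303-123411552, plus strand) and Map2 (chr1:66175079-66175328, plus strand) are given 5′ to 3′ with each CG dinucleotide in capitals.
Dcx: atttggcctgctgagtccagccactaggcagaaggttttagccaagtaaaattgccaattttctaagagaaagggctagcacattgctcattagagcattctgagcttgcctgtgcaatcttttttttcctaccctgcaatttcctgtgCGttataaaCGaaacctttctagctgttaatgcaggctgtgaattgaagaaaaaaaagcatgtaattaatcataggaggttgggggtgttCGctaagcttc
Dclk1: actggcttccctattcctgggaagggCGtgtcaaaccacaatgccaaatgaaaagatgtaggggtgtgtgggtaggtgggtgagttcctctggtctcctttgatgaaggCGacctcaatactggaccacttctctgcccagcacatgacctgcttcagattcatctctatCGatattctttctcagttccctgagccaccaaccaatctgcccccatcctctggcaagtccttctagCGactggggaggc
Tubb3: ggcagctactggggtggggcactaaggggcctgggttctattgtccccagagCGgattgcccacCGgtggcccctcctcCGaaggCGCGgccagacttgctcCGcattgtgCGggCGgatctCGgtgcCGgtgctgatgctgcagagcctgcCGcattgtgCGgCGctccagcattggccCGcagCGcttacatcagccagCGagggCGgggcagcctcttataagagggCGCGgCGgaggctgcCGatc
Map2: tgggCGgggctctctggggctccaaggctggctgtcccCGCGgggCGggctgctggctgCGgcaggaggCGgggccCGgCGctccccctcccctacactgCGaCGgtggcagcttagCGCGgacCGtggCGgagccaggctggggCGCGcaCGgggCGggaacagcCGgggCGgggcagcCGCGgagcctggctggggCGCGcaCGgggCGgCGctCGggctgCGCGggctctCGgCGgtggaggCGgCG
The windows of Dcx and Dclk1 held 3 and 4 CG dinucleotides, under the median of 6 over 32851 windows of the same length, while those of Tubb3 and Map2 held 21 and 34. Fewer CG dinucleotides than in the Map2 window were found in 96.5% of all windows, and at least 1 was found in 92.1%. The second RefSeq starts of Dcx and Dclk1 also had 3 and 4. The windows of Stmn3 and Map1b, read in the same way, had 3 and 19. The letters TATAAA, searched on both strands, occurred once in the Dcx window and once in the Map1b window. The Dclk1, Tubb3, Map2 and Stmn3 windows had none, and 12.4% of all windows held them. The E-box letters CANNTG, also searched on both strands, occurred in 2 places in the Dclk1 window and in none of the other windows printed. The windows of Stmn3, Map1b and the second Dclk1 start held 1 each, and 66.2% of all windows held them. A match of letters is a description only.

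Other genes of the microtubule system were called in both directions. Over 5 lists without the 10 genes, 115 of 121 genes were tested, 42 were higher and 22 lower in GFP-positive cells, beside 26.1% higher and 29.2% lower over all tested genes. These lists were also written with earlier results known, and nothing about them is tested as a set.

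Of 20 other doublecortin-family and MAP genes, all 20 tested, 5 were higher and 5 lower, with a median log2 fold change of 0.14. Tppp, a tubulin polymerisation-promoting protein of oligodendrocytes, stood at 30.7 ± 0.75 CPM in the GFP-positive fraction, against 12.3 ± 1.16 CPM in the GFP-negative fraction (SD, n = 3 each), higher by 1.32 on the log2 scale (SE 0.09; edgeR, adjusted p = 1.47e-05). Map7d2, which recruits kinesin to microtubules, was higher by 1.15, and Mid2, a ubiquitin ligase on microtubules, had a value of -1.24. Without GFP-negative replicate 2, 8 were higher.

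Of 14 other alpha and beta tubulin genes, 10 were tested, and 4 were higher and 4 lower, with a median of -0.17. Tubb4a, the beta tubulin of myelinating cells and neurons, was at 121 ± 10.7 CPM in the GFP-positive fraction, against 25.8 ± 9.13 CPM in the GFP-negative fraction (SD, n = 3 each), higher by 2.23 on the log2 scale (SE 0.21; edgeR, adjusted p = 7.47e-05). It was higher by more than Tubb3 in the fitted values, a difference that was not tested. Tuba1a, the main alpha tubulin of young neurons, was higher by 0.76, and Tubb6 had a value of -2.02. Tubulin genes are close copies, so reads may be split among them in a way the sources used here do not describe. Without GFP-positive replicate 1, without GFP-negative replicate 3 and without replicate number 3, 2 were lower.

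Of 32 genes for microtubule ends, nucleation and severing, all tested, 13 were higher and 6 lower, with a median of 0.16. Camsap3 and Camsap2, which protect minus ends, were higher by 2.27 and 0.83. Nde1, a dynein regulator needed for neural progenitor division, had a value of -1.03. Without replicate number 1, 8 were higher.

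Of 27 genes for tubulin modification and folding, 25 were tested, 7 were higher and 3 lower, with a median of 0.10. Vash2, a tubulin detyrosinating enzyme, was at 38.9 ± 1.45 CPM in the GFP-positive fraction, against 13.2 ± 2.96 CPM in the GFP-negative fraction (SD, n = 3 each), a log2 fold change of 1.55. Ttll4, a glutamylase, and Atat1, the alpha tubulin acetyltransferase, were higher by 0.66 and 0.68. Agbl2, a carboxypeptidase, had a value of -3.27 and few counts, at a mean of 0.411 CPM in the GFP-positive fraction, against 4.08 CPM in the GFP-negative fraction. Without replicate number 1, 4 were higher.

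Of 28 kinase and phosphatase genes that act on MAPs and stathmins, all tested, 13 were higher and 4 lower, with a median of 0.18. Cdk5r2, an activator of the kinase Cdk5, was higher by 3.04 at low levels, with a mean of 3.40 CPM in the GFP-positive fraction, against 0.411 CPM in the GFP-negative fraction. Brsk2, a kinase of neuronal polarity, was higher by 1.58. Camk2b, a calcium-dependent kinase, had a value of -1.99, with 75.5 ± 3.14 CPM in the GFP-positive fraction, against 299 ± 88.0 CPM in the GFP-negative fraction (SD, n = 3 each). Without GFP-positive replicate 1, without replicate number 1 and without replicate number 3, 2 were lower.

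**Figure D4:**
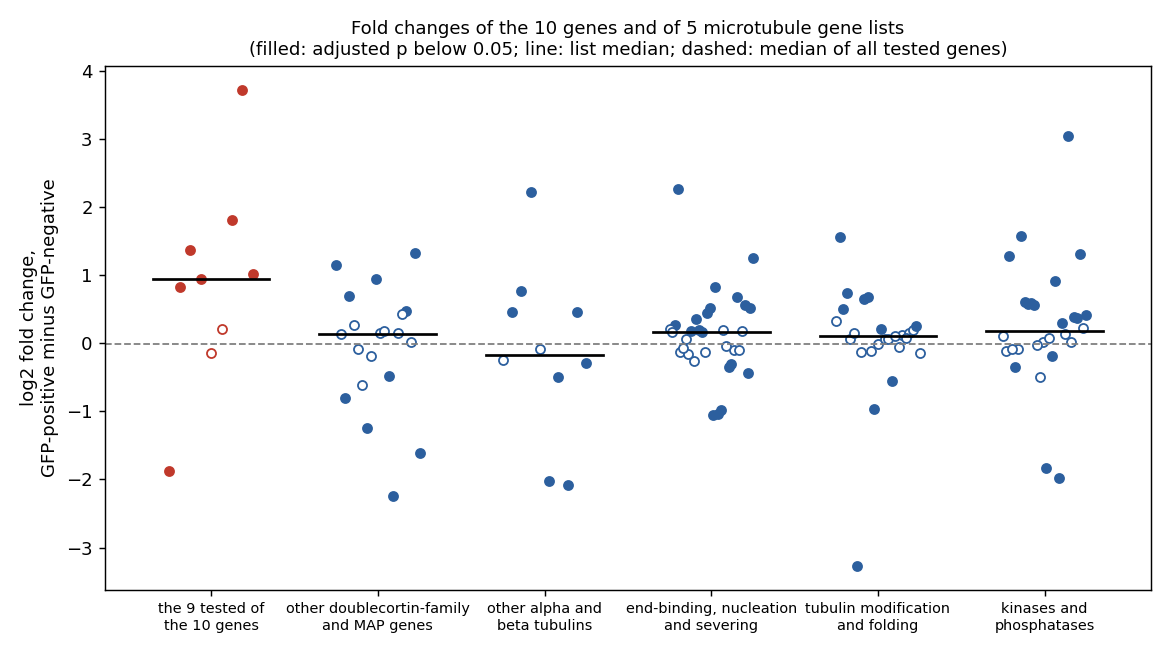
Log2 fold change (GFP-positive minus GFP-negative) of the 9 tested genes (red) and of 5 lists of other microtubule genes (blue); filled points have an adjusted p below 0.05, lines are medians and the dashed line is the median of all tested genes. The 9 genes have a median of 0.94, and the lists have medians from -0.17 to 0.18.

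Genes with the most similar pattern over the 6 libraries were found by the distance between centred log2 CPM values, with no test. Nearest to Dcx were Unc5c, a netrin receptor, at a distance of 0.485, then C1ql1 and Slc1a1, at 0.563 and 0.591. Nearest to Dclk1 were Rhbdf1, Gfra2 and Fabp7, a radial glial lipid carrier, at 0.153, 0.182 and 0.198. Tubb3 lay closest to Fam169a, Tmeff2 and Igsf9b (0.0933 to 0.172), and Map2 to Sgk1, Fchsd2 and Tppp (0.0604 to 0.123). Stmn3 lay closest to Mex3b, Tmcc2 and Syn1, Stmn4 to Tmem178, Slc35f1 and Pmepa1, and Mapt to Akap6, Raph1 and Cdc14b. For Map1b these were Trim35, Xpot and Umps, and for Stmn1 they were Cpsf4, Mosmo and H3c6.

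Most tested markers of neurons moved with the 6 genes that rose. Of 22 neuron markers, 15 were tested, 12 were higher and 1, Eno2, was lower in the GFP-positive fraction. Their summed level was 601 to 605 CPM in GFP-positive and 221 to 305 CPM in GFP-negative libraries. The transmitter transporter genes that define neuron classes were near 0: Slc17a6 and Slc6a5 had 0 counts in every library, Slc32a1 had 0 in each GFP-positive library and at most 2 in a GFP-negative one, and Slc17a7 had 1 to 4 counts in GFP-positive and 1 to 2 counts in GFP-negative libraries. Gad1 and Gad2 were the 2 tested neuron markers without a call (edgeR adjusted p = 0.631 and 0.182). Their mean levels were 1.65 and 2.86 CPM in GFP-positive cells, against 1.21 and 3.92 CPM in GFP-negative cells. The pan-neuronal genes Rbfox3, Snap25 and Syt1, singled out like the transporters after their values were seen, were higher by 1.88, 1.71 and 2.37. Ina, a neurofilament-related protein, was at 62.3 ± 5.67 CPM in the GFP-positive fraction, against 10.5 ± 1.79 CPM in the GFP-negative fraction (SD, n = 3 each). Nefm, a neurofilament chain, was higher by 2.33 and Syn1, a synaptic vesicle protein, by 0.91.

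Of 19 neuroblast markers, 10 were tested, 8 were higher and 0 lower, with a summed level of 2469.6 to 2685 CPM in GFP-positive and 1336 to 1580.4 CPM in GFP-negative libraries. Among them were Celf3 and Sox4, at log2 fold changes of 2.25 and 0.95. Of 18 oligodendrocyte precursor markers, all tested, 15 were higher and 0 lower, among them Gpr17 at 3.85 and Dll3 at 2.92. Pdgfra itself was used for the sort. The other 3, Bcan, Ptprz1 and Lnx1, missed the threshold. The summed level of the 18 was 10122.5 to 10500 CPM in GFP-positive and 7157 to 7363 CPM in GFP-negative libraries. Of 15 astrocyte markers, 14 were tested and all 14 fell, with a summed level of 689.96 to 835 CPM in GFP-positive and 4926 to 6187 CPM in GFP-negative libraries. Slc1a3, Mlc1 and Hepacam, the 3 with the smallest p, had log2 fold changes of -2.88, -4.27 and -2.94. The part of these cell types in the levels of the 10 genes was not tested.

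The remaining markers were at lower levels. Ependymal markers fell in 4 of 6 tested genes, Rfx2, Cfap44 and Foxj1 among them, at -2.62, -3.30 and -1.44. Of 7 tested mature oligodendrocyte markers 5 were higher, among them Cldn11 at 2.34 and Ugt8a at 2.31, and 1, Aspa, was lower at -4.08. Microglia, endothelial, and fibroblast and mural lists had 2, 4 and 4 tested genes, of which 1, 1 and 2 were lower and 0 higher, and their summed level reached 9.98, 2.75 and 10.6 CPM in GFP-positive libraries, against 27.0, 10.01 and 109 CPM in GFP-negative ones. The highest fibroblast and mural sum was mostly Col3a1 in GFP-negative replicate 2, at 102 CPM, against 0.758 and 20.6 CPM in GFP-negative replicates 1 and 3, and the lowest GFP-negative sum of that list was 11.7 CPM. Col3a1 itself did not pass the test (edgeR, adjusted p = 0.0801). Flt1, at -4.10, was the lower gene of the endothelial list, and Myh11 and Col1a1, at -3.29 and -2.96, were those of the fibroblast and mural list.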

How the data were processed

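RNA was measured in 6 bulk libraries, made with the SMART-Seq Stranded kit from sorted cells, per the labels' protocols. The deposited table holds raw read counts per gene, with no normalization, per the file headers. The submitters' processing notes list TopHat2 2.1.1 and featureCounts 2.0.0 with build mm39. The annotation, the strand setting and the treatment of reads with several matches are not given in any source used here. Reads of Dclk1, Map2 and Stmn1 could be mixed with those of genes that share 0.177% to 3.43% of their exon bases in GENCODE M21. Table counts include PCR copies, so depth bounds counting error only.

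Samples were grouped by title. Differences were tested with edgeR 4.0.16 (R 4.3.3): TMM scaling, filterByExpr, quasi-likelihood F test, Benjamini-Hochberg adjustment over 14554 of 26264 genes, threshold 0.05. The SE is the fold change over the square root of F. The script was tested on simulated data. CPM are TMM-scaled. Levels per kilobase use the merged length of all exons in GENCODE M21, by symbol. Long rare exons add to that length and make the level per kilobase too low. Ratios used an exact permutation test. Replicate numbers are shared between the fractions. Deviations of same-numbered libraries correlated at 0.218, 0.355 and 0.159, so the numbers were taken to pair the samples. For replicates 1, 2 and 3 the highest correlation with a library of another number was 0.128, -0.143 and 0.128. The unblocked fit, which ignores this pairing, is the main result, and the permutation test of ratios ignores it too. Within a group, libraries differed beyond counting noise (chi-square over its degrees of freedom, 9.83 to 34.2). Nothing says that replicates are separate animals or cultures, so the p-values rest on the spread between these libraries, which may be technical. Named genes were the 10 genes, the 3 smallest p per list with the smallest of the opposite direction, and the 3 nearest patterns (mean log2 CPM of at least 3, prior count 2); a few genes that the rule names are not reported here. Members and lists were chosen with earlier results of these data known. Alternatives were RLE and upper-quartile scaling, library totals, no filter, CPM of at least 1 in 3 libraries, DESeq2 1.42.0, limma-voom 3.58.1, the replicate block, and leaving out each library or number.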

Additional observations from a re-analysis of the deposited data

How the results depend on the processing

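Of 17 alternatives per gene, all kept the call and direction of Dcx, Dclk1, Tubb3, Map2, Mapt and Stmn3, and Map1b stayed without a call; Stmn4 and Stmn1 changed as given above. The calls of the 16 named genes of the microtubule lists also held in all of these fits. The log2 fold change of Dcx ranged from 3.42 to 4.41 and that of Dclk1 from -1.98 to -1.76. The count of the 10 genes called was 7, 6 with DESeq2, and 6 to 8 over the fits that left out a library or number. Genes called over all genes numbered 8058, and 5401 to 8637 in those fits, with 2450 to 4169 higher; the lowest, 2450, came without replicate number 3, which leaves 2 libraries a fraction. The calls in the 5 microtubule lists numbered 64, and 48 to 72 in those fits. The replicate block gave 8340 calls over all genes and 67 in the lists, and it changed no call among the 10 genes. With pairs, the smallest exact sign-flip p of a ratio is 0.25, and every mean difference of a ratio kept its direction without each replicate number. The Stmn4 to Stmn3 ratio showed no difference beyond its spread: the libraries overlapped (exact two-sided permutation p = 0.6), at -2.53 in GFP-positive and -2.17 in GFP-negative replicate 2 on the log2 scale, with a mean difference of 0.20, and 0.039 to 0.48 without each number. Length scaling cannot change these differences, since it cancels. Depth limits Stmn2, Agbl2 and Cdk5r2. Among the named cell type markers it also limits Col1a1, Cfap44, Aspa and Flt1, with GFP-positive means of 0.131, 0.188, 0.129 and 0.218 CPM.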
